A study of Mus musculus with 18 samples.

Results

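Surfactant and epithelial transcripts were followed in macrophages sorted from inflamed mouse lungs. The 10 genes were Sftpc, Sftpb, Sftpa1, Sftpd, Scgb1a1, Epcam, Krt8, Krt18, Cdh1 and Ager, out of 21254 genes in the count table. They were chosen by their link to a measured pattern, since Sftpc and Sftpb set the transitional interstitial macrophages apart from the other populations on the second principal component, so the difference between that population and the others was used in the choice and is given here as a description without a test. All 10 genes passed the filter on low counts, which kept 15811 genes for testing. Some libraries nevertheless held under 10 counts of Epcam, and 1 held under 10 counts of Sftpb.

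The study asked how ezrin, a protein that links the cell membrane to the actin cytoskeleton, shapes the adaptation of monocytes to the lung. The 3 populations were sorted from the lungs of mice that had inhaled nebulized LPS of Pseudomonas aeruginosa (12.5 mg in 5 ml over 15 min) and were killed after 24 h. Each population was sequenced as bulk RNA from 3 biological replicates of each of 2 genotypes, which gave 18 libraries in 6 groups. All libraries of a genotype came from 3 mice, so the populations share mice, but no label ties a replicate number to a mouse. The monocyte-derived macrophages (moMs) were sorted as CD45+CD11b+MHC-II-Ly6C+ cells, the transitional interstitial macrophages (tnsIMs, trIMs in the labels) as CD45+CD11b+MHC-II+Ly6C+ cells and the mature interstitial macrophages (matIMs) as CD45+CD11b+MHC-II+Ly6C- cells. The WT mice carried the Cre recombinase in the Cx3cr1 locus (Cx3cr1tm1.1(cre)Jung/J) with unmodified Ezr, and the Ezr-KOm mice carried the same Cre with both Ezr alleles floxed (Ez fl/fl). The mice, of C57BL/6 background and 3 to 5 months old, were females and males in equal numbers. Every group therefore had the Cre allele and the LPS, and there was no untreated group. Deletion follows the activity of the Cx3cr1 promoter, which the study names as also active in dendritic cells, eosinophils and NK cells, so it was not limited to the sorted cells.

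The lining of the distal lung is built from 2 kinds of alveolar epithelial cells. Type I pneumocytes are flat and form the surface for gas exchange, and type II pneumocytes make surfactant, the film of lipids and proteins that lowers surface tension in the alveoli. Club cells line the small airways and secrete Scgb1a1. Macrophages are known to take up and break down surfactant, while transcription of surfactant protein genes is a property of the epithelium.

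Library totals ranged from 16512783 to 48460995 counts, and no library was a copy of another. Levels are given as CPM, the counts of a gene scaled to a common library total after TMM normalization, and 1 count was worth between 0.01995 and 0.0634 CPM. The targeted gene Ezr (531 ± 53.6 CPM in WT moMs, SD, n = 3) was at 231.5 ± 63.7 CPM in Ezr-KOm moMs. In tnsIMs Ezr fell from 586 ± 83.8 to 191 ± 57.4 CPM, and in matIMs from 661.5 ± 70.0 to 135 ± 37.4 CPM (edgeR quasi-likelihood test, Benjamini-Hochberg adjusted p = 0.00365 and 7.73e-05), while in moMs the adjusted p was 0.0549. By library, WT moMs held 503.5, 593 and 497 CPM of Ezr and Ezr-KOm moMs 282, 160.0 and 252 CPM. For tnsIMs the values were 679, 515 and 565 CPM against 234, 126 and 213 CPM, and for matIMs 741, 632 and 611 CPM against 167, 93.9 and 144 CPM. Every Ezr-KOm library was below every WT library of its population. Among the sorting markers, Ly6c2 was lowest in the Ly6C- matIMs. It was at 481 ± 9.999 CPM in moMs of WT mice, 219 ± 95.4 CPM in their tnsIMs and 51.2 ± 18.01 CPM in their matIMs. Its level thus also differed between the 2 Ly6C+ populations. H2-Aa, an MHC-II gene, was lowest in the MHC-II- moMs, at 546 ± 119.5 CPM, 4520 ± 1049 CPM and 6608 ± 831 CPM in the same order. Ptprc, which encodes CD45, was at 1674 ± 40.6, 891 ± 153 and 1037 ± 116.5 CPM, although all 3 gates were CD45+. Macrophage genes were present in all 3 populations, with Csf1r between 1359 and 2621 CPM as group means. Of the 18 libraries, replicate 1 of the Ezr-KOm moMs stood apart for these genes. It held the highest value of its group for 9 of the 10, all but Cdh1, and fold changes between 2 groups that rest on it are given with and without it. Replicate 1 was also the highest for 8 of the 10 genes in Ezr-KOm tnsIMs and in Ezr-KOm matIMs, for 7 in WT moMs and for 6 in WT matIMs, but for 2 in WT tnsIMs. Replicate 3 of the Ezr-KOm tnsIMs was the lowest of its group for 9 of the 10 genes.

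For 6 of the 10 genes the sequence before the transcription start was at hand in RefSeq, in build GRCm38.p6, which is not the build of the counts. Sftpc, Sftpd, Scgb1a1 and Cdh1 were not among them. The 250 bases before the start are shown for Sftpb and Sftpa1, which moved together in these libraries, and for Epcam, which followed another pattern. Capitals mark matches, on the strand of the gene, to CTCAAG, the core recognised by the lung epithelial factor NKX2-1, and to TATAAA, the TATA box.

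Sftpb, chr6:72304360-72304609, plus strand: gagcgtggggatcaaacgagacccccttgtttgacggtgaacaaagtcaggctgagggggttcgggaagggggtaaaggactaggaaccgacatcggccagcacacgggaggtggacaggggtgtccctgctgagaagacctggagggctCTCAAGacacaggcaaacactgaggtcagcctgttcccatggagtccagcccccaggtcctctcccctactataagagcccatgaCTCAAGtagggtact
Sftpa1, chr14:41131538-41131787, plus strand: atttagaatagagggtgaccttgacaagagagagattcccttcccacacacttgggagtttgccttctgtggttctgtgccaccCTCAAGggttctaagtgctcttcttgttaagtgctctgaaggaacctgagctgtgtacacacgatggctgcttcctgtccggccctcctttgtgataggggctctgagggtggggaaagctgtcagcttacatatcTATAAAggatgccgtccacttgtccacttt
Epcam, chr17:87635729-87635978, plus strand: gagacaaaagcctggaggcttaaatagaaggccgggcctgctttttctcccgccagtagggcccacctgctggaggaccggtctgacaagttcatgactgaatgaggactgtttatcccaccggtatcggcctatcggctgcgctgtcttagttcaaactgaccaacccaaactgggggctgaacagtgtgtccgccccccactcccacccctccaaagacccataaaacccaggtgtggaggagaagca

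The Sftpb window held CTCAAG at 100 and 15 bases before the start, and the Sftpa1 window held it at 166 bases and TATAAA at 30 bases before the start. Searched on both strands, CTCAAG was present in 13.33% of 32851 mouse promoter windows of the same length, TATAAA in 12.37% and the forkhead motif TGTTTAC in 3.17%. None of these letters occurred in the windows of Epcam, Krt8, Krt18 or Ager. The motifs do not overlap each other, and a match describes letters only.

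The 4 surfactant protein genes were highest in tnsIMs, lower in matIMs and lowest in moMs, in both genotypes. Sftpc (ENSMUSG00000022097, chr14:70758389-70761521 on the minus strand of GRCm39) encodes surfactant protein C, a small hydrophobic peptide made only by type II pneumocytes. In moMs the WT libraries held 23.9, 13.9 and 17.7 CPM of Sftpc and the Ezr-KOm libraries 43.4, 7.40 and 12.9 CPM, in the order of their replicate numbers. In tnsIMs the values were 870.2, 1876 and 1199 CPM in WT and 1321, 1161 and 572 CPM in Ezr-KOm. In matIMs they were 122, 103 and 118 CPM in WT and 122, 78.4 and 47.9 CPM in Ezr-KOm. The 3 populations did not overlap in either genotype, while WT and Ezr-KOm overlapped in each of them. In these sorted bulk samples fewer cells of a type and less RNA per cell cannot be told apart.

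Sftpb (ENSMUSG00000056370, chr6:72281594-72291354, plus strand) encodes the other hydrophobic surfactant protein, needed to spread the lipid film. Its values were 1.42, 1.37 and 1.65 CPM in WT moMs, and 4.09, 0.347 and 0.793 CPM in Ezr-KOm moMs. The tnsIM libraries held 102, 66.8 and 133 CPM of Sftpb in WT and 96.5, 104 and 42.4 CPM in Ezr-KOm. The matIM libraries held 9.53, 5.64 and 14.2 CPM in WT and 10.2, 6.61 and 4.74 CPM in Ezr-KOm. All matIM values lay between those of the other populations, and the lowest Sftpb value of all, in replicate 2 of the Ezr-KOm moMs, rested on 9 counts. Gm67669 overlaps Sftpb on the opposite strand.

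Sftpa1 (ENSMUSG00000021789, chr14:40853739-40858409, plus strand) and Sftpd (ENSMUSG00000021795, chr14:40894171-40907106, minus strand) encode surfactant proteins A and D, collectins that bind microbes in the alveolar fluid. The 2 genes are neighbours, 35.8 kb apart. Sftpa1 was at 34.6, 17.9 and 26.0 CPM in WT moMs and at 58.5, 8.10 and 17.2 CPM in Ezr-KOm moMs. In tnsIMs it had the highest mean CPM of the 10 genes, with 1324, 1986 and 1843 CPM in WT and 1633, 1138 and 837.6 CPM in Ezr-KOm. In matIMs Sftpa1 was at 184, 146 and 184 CPM in WT and at 161, 101 and 82.4 CPM in Ezr-KOm. The order of the populations was again without overlap.

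Sftpd was at 7.69, 2.98 and 7.17 CPM in WT moMs and at 16.0, 3.12 and 5.82 CPM in Ezr-KOm moMs. The tnsIM libraries held 412, 391 and 489 CPM in WT and 459, 348 and 235 CPM in Ezr-KOm. The matIM libraries held 55.7, 38.2 and 50.2 CPM in WT and 45.6, 21.7 and 22.9 CPM in Ezr-KOm. The populations did not overlap, and the moM library that came closest to the matIMs was replicate 1 of the Ezr-KOm group, as for the other surfactant genes. Mbl1, another collectin gene, overlaps Sftpd on the opposite strand, and since the strand used in counting is not given in the sources used here, reads of the pair may not be separated.

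Taken per kb of exon, so that genes can be set side by side, Sftpc was the most abundant of the 10 in WT tnsIMs at 1268 ± 495 CPM per kb (SD, n = 3), followed by Sftpa1 at 572 ± 116 and Sftpd at 177 ± 21.1 CPM per kb. Sftpb at 49.8 ± 16.4 and Ager at 59.1 ± 8.19 CPM per kb did not differ beyond their spread. The 4 surfactant genes took between 0.1697% and 0.413% of all counts in tnsIM libraries, between 0.0167% and 0.0391% in matIM libraries and between 0.00187% and 0.0114% in moM libraries.

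**Figure D1:**
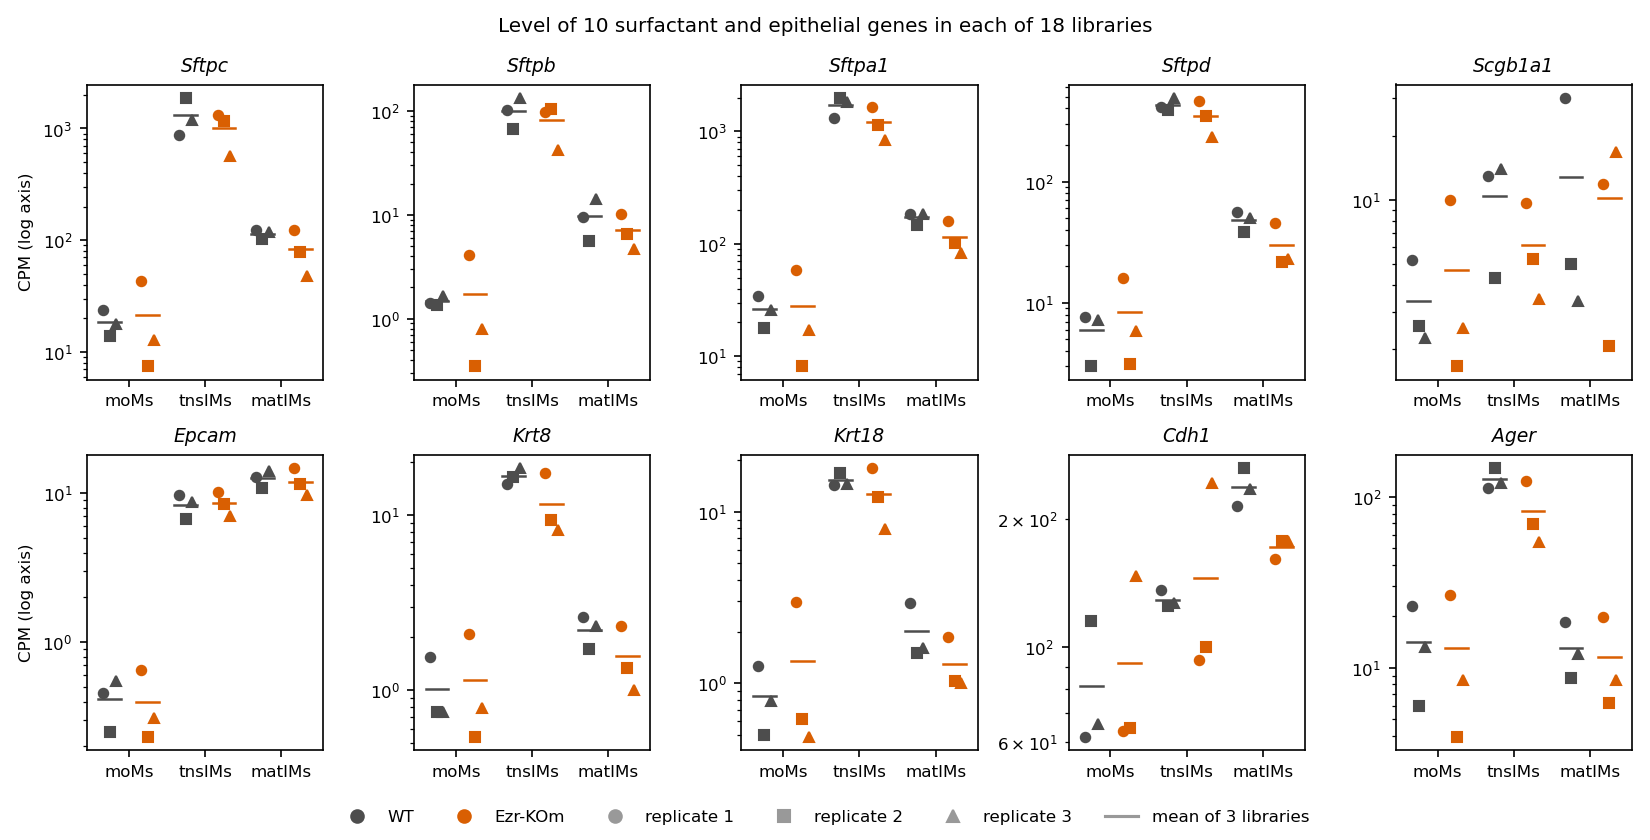
Level of each of the 10 genes in every library as CPM on a log axis, by population (moMs, tnsIMs, matIMs) and genotype (grey WT, orange Ezr-KOm), with a symbol per replicate and a line at the mean of 3 libraries. Sftpc lay between 572 and 1876 CPM in tnsIMs and between 47.9 and 122 CPM in matIMs, whereas Epcam and Cdh1 had their highest means in matIMs.

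Scgb1a1 (ENSMUSG00000024653, chr19:9061000-9065322, minus strand), the secretoglobin of club cells, did not share this order. It was at 5.24, 2.57 and 2.24 CPM in WT moMs and at 10, 1.66 and 2.51 CPM in Ezr-KOm moMs. The tnsIM libraries held 13.0, 4.31 and 14.0 CPM of Scgb1a1 in WT and 9.64, 5.31 and 3.43 CPM in Ezr-KOm. The matIM libraries ranged most widely, with 30.1, 5.00 and 3.35 CPM in WT and 11.9, 2.06 and 16.8 CPM in Ezr-KOm. Every pair of the 3 populations overlapped in both genotypes, and the highest WT matIM library held 8.98 times the lowest.

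Epcam (ENSMUSG00000045394, chr17:87943407-87958557, plus strand) encodes an adhesion molecule of epithelial cells that is also known from some dendritic cells. In moMs it was close to the limit of detection, at 0.455, 0.249 and 0.551 CPM in WT and 0.652, 0.231 and 0.309 CPM in Ezr-KOm, or between 6 and 15 counts a library. In tnsIMs Epcam was at 9.72, 6.72 and 8.74 CPM in WT and at 10.2, 8.48 and 6.99 CPM in Ezr-KOm. In matIMs it was at 12.8, 10.8 and 14.1 CPM in WT and at 14.7, 11.5 and 9.77 CPM in Ezr-KOm. Every WT matIM library was above every WT tnsIM library, and in Ezr-KOm the ranges of these populations overlapped. Gm65099 and Gm65095 overlap Epcam on the opposite strand and may share its reads.

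Krt8 (ENSMUSG00000049382, chr15:101905133-101912917, minus strand) and Krt18 (ENSMUSG00000023043, chr15:101936615-101940462, plus strand) encode the keratins that pair into the filaments of simple epithelia, and lie 23.7 kb apart. Krt8 was at 1.54, 0.746 and 0.748 CPM in WT moMs and at 2.09, 0.540 and 0.793 CPM in Ezr-KOm moMs. The tnsIM libraries held 15.0, 16.4 and 18.5 CPM of Krt8 in WT and 17.3, 9.36 and 8.22 CPM in Ezr-KOm. In matIMs Krt8 was at 2.62, 1.71 and 2.31 CPM in WT and at 2.33, 1.34 and 1.01 CPM in Ezr-KOm. The tnsIM libraries stood above all others, and matIMs and moMs overlapped in Ezr-KOm. Gm36026 overlaps Krt8 on the opposite strand.

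Krt18 was at 1.25, 0.497 and 0.787 CPM in WT moMs and at 2.96, 0.617 and 0.485 CPM in Ezr-KOm moMs. It was at 14.3, 16.9 and 14.5 CPM in WT tnsIMs and at 17.9, 12.2 and 7.88 CPM in Ezr-KOm tnsIMs. In matIMs the values were 2.93, 1.495 and 1.60 CPM in WT and 1.86, 1.03 and 1.01 CPM in Ezr-KOm. As with Krt8, tnsIMs were apart from the other populations, and the Ezr-KOm moM library of replicate 1 was above every Ezr-KOm matIM library.

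Cdh1 (ENSMUSG00000000303, chr8:107329983-107396878, plus strand) encodes E-cadherin, the adhesion protein of epithelial junctions, which is also known from some dendritic cells and macrophages. It was abundant in every library, at 61.6, 115 and 66.2 CPM in WT moMs and at 63.6, 64.7 and 147 CPM in Ezr-KOm moMs. The tnsIM libraries held 136, 125 and 127 CPM of Cdh1 in WT and 93.4, 100.5 and 243 CPM in Ezr-KOm. The matIM libraries held 214.5, 263 and 236 CPM in WT and 161, 178 and 178 CPM in Ezr-KOm. WT matIMs were above the other WT populations, and replicate 3 of the Ezr-KOm tnsIMs, the lowest library of its group for the other 9 genes, was the highest for Cdh1.

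Ager (ENSMUSG00000015452, chr17:34816836-34819910, plus strand) encodes RAGE, a receptor that is most abundant on type I pneumocytes. It was at 23.0, 5.97 and 13.3 CPM in WT moMs and at 26.6, 3.93 and 8.46 CPM in Ezr-KOm moMs. The tnsIM libraries held 113, 147 and 121 CPM of Ager in WT and 124, 69.0 and 54.3 CPM in Ezr-KOm. In matIMs Ager was at 18.5, 8.67 and 12.0 CPM in WT and at 19.9, 6.26 and 8.51 CPM in Ezr-KOm. The tnsIMs were above the other populations in both genotypes, and moMs and matIMs overlapped in both.

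The 10 genes therefore fell into different orders across the populations. The surfactant genes, Krt8, Krt18 and Ager were higher in every tnsIM library than in every matIM library of the same genotype, which was 7 of 10 genes in WT and 7 of 10 in Ezr-KOm. Over all genes tested, 15.4% in WT and 15.7% in Ezr-KOm showed that separation. Against moMs, 9 of 10 genes were higher in every WT tnsIM library (19.6% of all genes tested) and 8 of 10 in every Ezr-KOm tnsIM library (16.1%). These counts restate how the genes were chosen and are given without a test.

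Measured as the mean in moMs relative to the mean in tnsIMs of the same genotype, the 4 surfactant genes lay close together, between 1.38% and 1.52% in WT and between 2.08% and 2.40% in Ezr-KOm. The Ezr-KOm moM means rested largely on replicate 1, with 43.4 CPM of Sftpc against 7.40 and 12.9 CPM in the others. Those others were below every WT moM library for Sftpc, Sftpb and Sftpa1, and within the WT range for Sftpd. In matIMs they were at 8.70% to 11.2% of the tnsIM level in WT and at 8.13% to 9.54% in Ezr-KOm. Krt8 and Krt18 in moMs stood at 6.08% and 5.55% of the tnsIM level in WT, and Ager at 11.1%. Epcam in matIMs reached 150% of the tnsIM level in WT and 140.0% in Ezr-KOm, and Cdh1 reached 184% and 118%. The comparison of tnsIMs with the mean of both other populations on the fitted log2 scale gave 4.68 to 4.84 for the surfactant genes in WT, 3.49 and 3.56 for Krt8 and Krt18, 3.23 for Ager, 1.87 for Epcam, 0.69 for Scgb1a1 and -0.10 for Cdh1. In Ezr-KOm the same differences were 4.41 to 4.60, 3.12 and 3.25, 2.75, 1.97, -0.18 and 0.21.

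**Figure D2:**
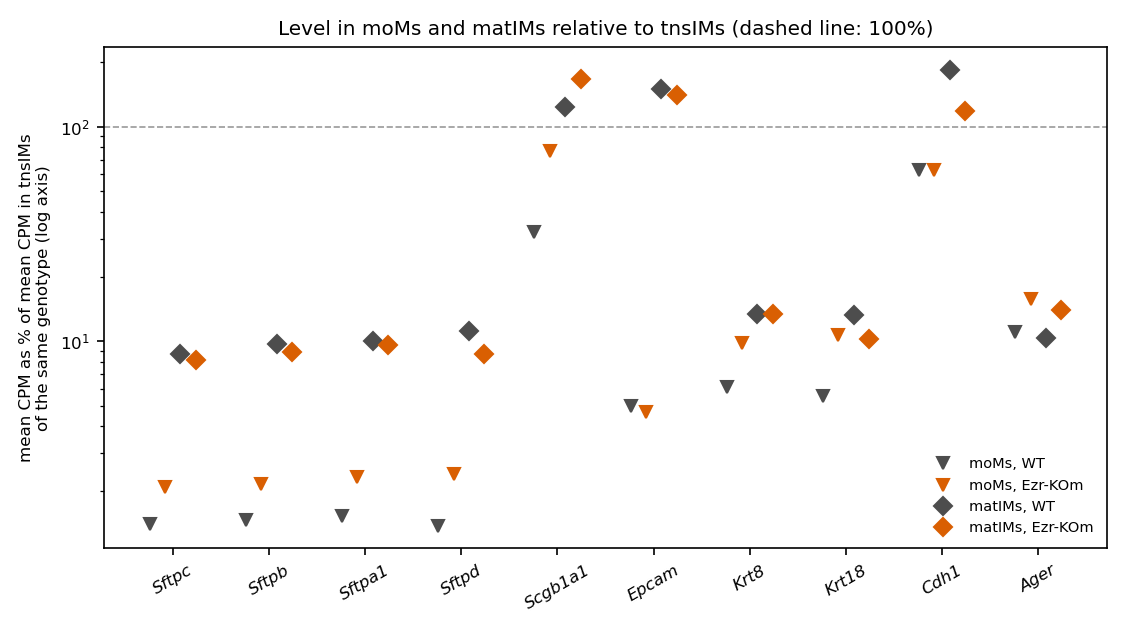
Mean CPM of each gene in moMs (triangles) and matIMs (diamonds) as a percent of the mean in tnsIMs of the same genotype, on a log axis, with WT in grey and Ezr-KOm in orange and a dashed line at 100%. The surfactant genes lay between 1.38% and 2.40% in moMs and between 8.13% and 11.2% in matIMs, and matIMs were above 100% for Scgb1a1, Epcam and Cdh1. The Ezr-KOm moM means include replicate 1, the highest of its group for each surfactant gene.

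As medians over libraries, the surfactant genes had nearly the same proportions to each other in all 3 populations, while single libraries varied. Per 100 counts of Sftpc, a median of 134.5 counts of Sftpa1 were found in moMs, 135 in tnsIMs and 146 in matIMs (n = 6 libraries each, both genotypes). For Sftpd the medians were 38.7, 37.8 and 40.0 counts, and for Sftpb 7.76, 8.17 and 8.37 counts. The ranges of the 3 populations overlapped for each of these genes, with Sftpb running from 4.69 to 9.85 in moMs, from 3.56 to 11.7 in tnsIMs and from 5.46 to 12.0 in matIMs. Sftpd ran from 21.5 to 45.2 in moMs, from 20.9 to 47.4 in tnsIMs and from 27.7 to 47.9 in matIMs.

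The other members did not keep to Sftpc in this way. Ager was at a median of 63.5 counts per 100 counts of Sftpc in moMs (42.99 to 96.4), against 9.43 in tnsIMs (5.94 to 13.0) and 12.7 in matIMs (7.98 to 17.8). For Krt8 the medians ran 5.77, 1.38 and 1.94 in that order, and for Krt18 4.85, 1.28 and 1.49. For these 3 genes every moM library was above every library of the other populations. Sftpc was itself chosen because it set tnsIMs apart, and it was lowest in moMs. Any gene that falls less than Sftpc therefore has a higher ratio in moMs, so the ratios are a description without a test. Epcam stood at 2.15, 0.7503 and 12.0 without overlap of the populations, Scgb1a1 at 20.7, 0.665 and 7.29, and Cdh1 at 602, 9.62 and 214. A ratio of this kind compares 2 genes in the same library and is not changed by the library's depth or scaling.

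**Figure D3:**
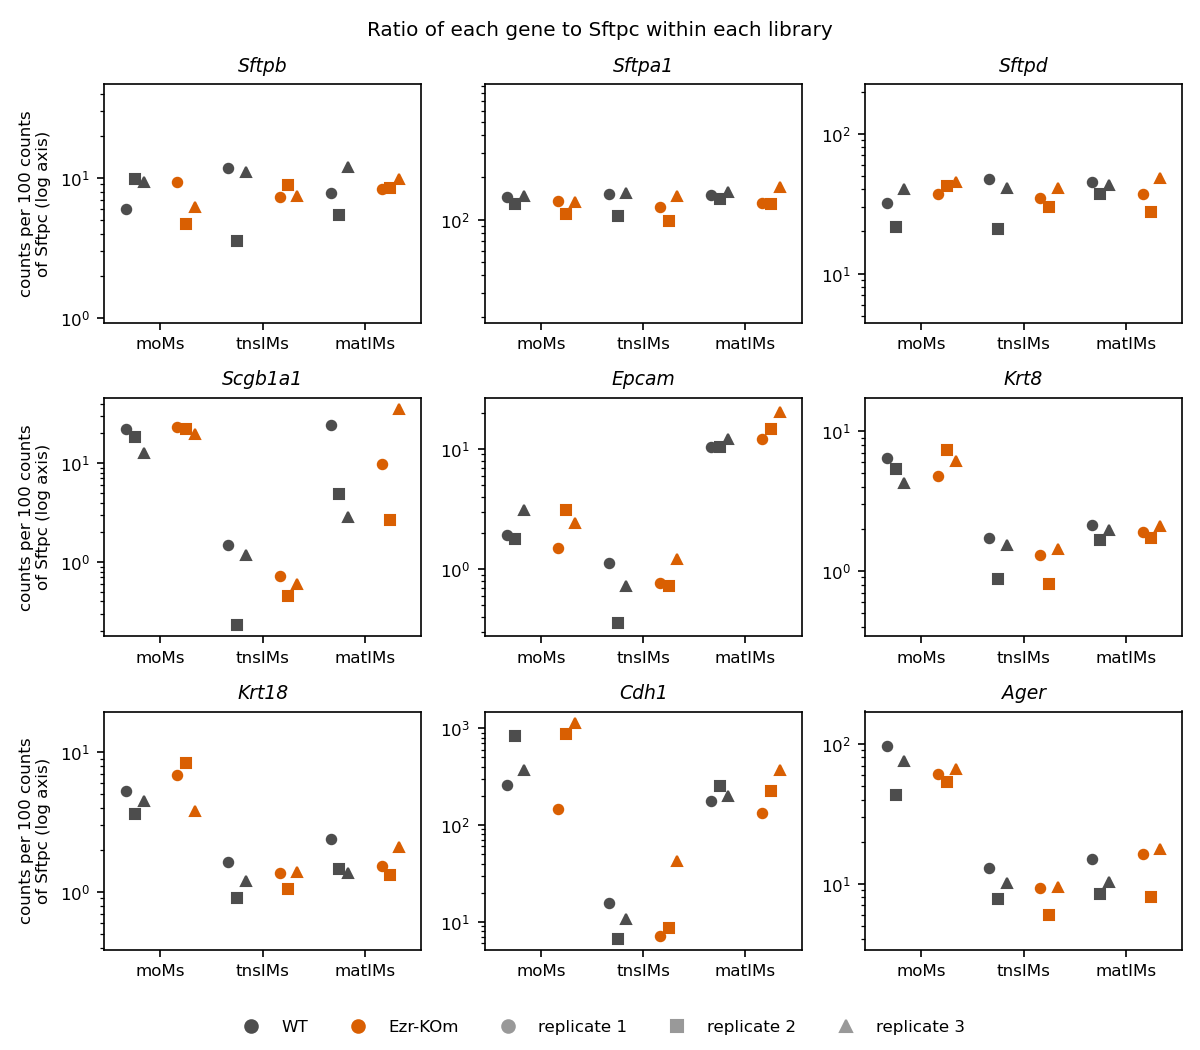
Counts of each of the other 9 genes per 100 counts of Sftpc in the same library, on log axes, by population and genotype (grey WT, orange Ezr-KOm), with a symbol per replicate. The ranges of Sftpb, Sftpa1 and Sftpd overlapped between the 3 populations, and Ager, Krt8 and Krt18 were higher in all 6 moM libraries than in any other library. Sftpc was chosen for its difference between populations, so these ratios are a description.

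Across all 18 libraries, the log2 CPM of Sftpc went with that of Sftpa1 (Pearson r = 0.997), Sftpd (0.991), Sftpb (0.985), Krt8 (0.969), Krt18 (0.957) and Ager (0.891). The values were lower for Epcam (0.739), Scgb1a1 (0.427) and Cdh1 (0.278). These points share the 3 populations, so the r values mostly restate the differences between them. Within the 6 moM libraries alone, r with Sftpc was 0.993 for Sftpa1, 0.942 for Scgb1a1, 0.941 for Ager and 0.879 for Epcam, and -0.336 for Cdh1. Replicate 1 of the Ezr-KOm moMs is among these 6 libraries, and r without it was not computed. Within tnsIMs r with Sftpc ranged from 0.877 for Sftpa1 to -0.762 for Cdh1, with 0.684 for Sftpd and 0.434 for Sftpb. Within matIMs it ranged from 0.958 for Krt8 to -0.022 for Scgb1a1. On the second principal component of the 500 most variable genes, which held 16.5% of their variance, Sftpc and Sftpb had the weights ranked 2 and 3, Sftpd and Sftpa1 ranked 6 and 7, and Krt18, Krt8, Ager and Epcam ranked 52, 65, 68 and 120. Scgb1a1 and Cdh1 were not among the 500 genes.

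The tested genes outside the 10 that were most like Sftpc over the 18 libraries were, by Pearson r of log2 CPM, Cxcl15 (0.992), Chil1 (0.992), Cldn3 (0.990), Chia1 (0.988), Lamp3 (0.986), Mlc1 (0.983), Muc1 (0.982), Atp1b1 (0.981), Orm1 (0.979) and Slc34a2 (0.979). Cxcl15, the lung chemokine lungkine, had a WT mean of 0.859 ± 0.439 CPM for moMs, 57.1 ± 12.9 CPM for tnsIMs and 6.09 ± 0.887 CPM for matIMs (SD, n = 3). Slc34a2, the phosphate transporter of type II pneumocytes, was at 2.42 ± 1.07, 147 ± 69.3 and 19.4 ± 5.85 CPM. Chil1, which encodes a chitinase-like protein, was the most abundant of the 10 per library, at 20.4 ± 5.19, 988 ± 151 and 115 ± 9.96 CPM.

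Markers of other cells moved with the surfactant genes in tnsIMs. Of 15 other type II pneumocyte genes tested, 13 were higher in WT tnsIMs than the mean of moMs and matIMs, with a median log2 difference of 3.75, against -0.02 over all genes tested. Of 12 type I pneumocyte genes (Ager included) 12 were higher, with a median of 2.13, and of 20 general epithelial genes (Epcam, Krt8, Krt18 and Cdh1 included) 19 were higher, with a median of 3.17. Of 12 endothelial markers 12 were higher, with a median of 2.55, and of 12 fibroblast and mural markers 11 were higher, with a median of 2.06. Summed over the list, endothelial markers ran from 509 to 819 CPM in WT tnsIMs, from 180.2 to 229 CPM in WT moMs and from 202 to 214 CPM in WT matIMs, and fibroblast and mural markers from 172 to 191, from 42.0 to 61.5 and from 28.7 to 48.5 CPM. Alveolar macrophage markers (6 of 12 higher, median -0.01), dendritic cell markers (2 of 8 higher, median -0.37) and T and NK cell markers (5 of 8 higher, median 0.16) did not show this shift. B cell markers (5 of 6 higher, median 1.18) and neutrophil markers (7 of 8 higher, median 1.08) lay between. In Ezr-KOm the medians were 3.33 for other type II, 1.66 for type I, 2.78 for general epithelial, 2.23 for endothelial and 1.88 for fibroblast and mural markers. Every gene of the endothelial and fibroblast lists had more than 3 counts in at least 1 library of each group. The lists describe the libraries, and the part of other cells in the levels of the 10 genes was not tested.

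Other type II genes differed in how they were spread over the populations. Nkx2-1, the factor whose motif was searched above, had a WT mean of 0.0970 ± 0.0666 CPM for moMs, which is at most 3 counts a library, 5.68 ± 2.42 CPM for tnsIMs and 0.484 ± 0.0728 CPM for matIMs. Lamp3, a protein of lamellar bodies, was at 1.67 ± 0.474, 86.8 ± 29.3 and 9.24 ± 0.587 CPM in the same order. Ctsh (947 ± 50.9, 987.5 ± 120.5 and 1084 ± 42.6 CPM) and Napsa (435 ± 20.6, 272 ± 31.0 and 436 ± 46.1 CPM), which encode proteases that process surfactant proteins and are also found in myeloid cells, did not follow this order.

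Surfactant genes were higher in matIMs than in moMs, and so was Epcam, in both genotypes. This difference was tested, since the choice of the genes rested on how tnsIMs stood apart. The principal component was, however, computed from all 18 libraries, moMs and matIMs included. The p-values of this contrast are therefore not fully independent of the choice. In WT, 6 of the 10 genes were called (edgeR quasi-likelihood test, Benjamini-Hochberg adjusted p under 0.05), all higher in matIMs. Over all genes tested 24.8% were called, and 13.4% were called higher in matIMs. The log2 fold change was 2.63 ± 0.51 for Sftpc (SE, adjusted p = 7.31e-04), 2.72 ± 0.59 for Sftpb (0.002), 2.72 ± 0.49 for Sftpa1 (4.27e-04) and 3.02 ± 0.47 for Sftpd (9.7e-05). Epcam changed most, by 4.90 ± 0.34 (adjusted p = 7.13e-09), and Cdh1 by 1.55 ± 0.34 (adjusted p = 0.00233). The moM libraries held only 6 to 15 counts of Epcam, which limits the precision of its fold change in both genotypes. Epcam was not tested where at least 10 counts were required in every library. Every WT matIM library was above every WT moM library for 8 of the 10 genes, the 6 called and Krt8 and Krt18, as it was for 22.2% of all genes tested.

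In Ezr-KOm, 5 of the 10 genes were called, all higher in matIMs, beside 23.3% of all genes called and 12.5% called higher. The log2 fold changes were 1.97 ± 0.50 for Sftpc (edgeR, Benjamini-Hochberg adjusted p = 0.00647), 2.06 ± 0.58 for Sftpb (0.0134), 2.04 ± 0.48 for Sftpa1 (0.004) and 1.86 ± 0.45 for Sftpd (0.00486). Epcam rose by 4.91 ± 0.34 (adjusted p = 6.56e-09), the same size as in WT. The call of Sftpb was lost without replicate 2 of the Ezr-KOm moMs (adjusted p = 0.063), without replicate 3 of the same group (0.0738) or without replicate 1 of the Ezr-KOm matIMs (0.0651). Without replicate 1 of the Ezr-KOm moMs the estimates were larger, at 3.05 for Sftpc, 3.68 for Sftpb, 3.20 for Sftpa1, 2.77 for Sftpd and 5.47 for Epcam. Non-overlapping libraries, higher in matIMs, were found for the 4 surfactant genes, Epcam and Cdh1, 6 of 10 genes, and for 20.7% of all genes tested.

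The remaining genes did not pass the threshold. In WT the log2 fold change of Krt8 was 1.16 ± 0.45 (edgeR, Benjamini-Hochberg adjusted p = 0.0717), that of Krt18 1.27 ± 0.55 (0.107) and that of Scgb1a1 1.95 ± 0.84 (0.103). Krt8 passed with DESeq2 (adjusted p = 0.0382) or without replicate 1 of the WT moMs (0.046), and Scgb1a1 without replicate 3 of the WT matIMs (0.0473). In Ezr-KOm, Cdh1 was at 0.91 ± 0.34 (adjusted p = 0.0617) and passed without replicate 3 of the Ezr-KOm moMs (1.41, adjusted p = 0.00473). Scgb1a1 at 1.12 ± 0.81, Krt8 at 0.47 ± 0.45 and Krt18 at -0.04 ± 0.53 did not pass in Ezr-KOm. With the replicate number as a block, Krt8 (1.19, adjusted p = 0.0116) and Krt18 (1.24, adjusted p = 0.0259) passed in WT and Cdh1 (0.98, adjusted p = 0.0196) in Ezr-KOm. Without replicate 1 of the Ezr-KOm moMs, Krt18 was at 1.25 in Ezr-KOm (adjusted p = 0.0853) and Krt8 and Krt18 passed in WT (0.0367 and 0.0286). Ager was at -0.10 ± 0.57 in WT and -0.16 ± 0.57 in Ezr-KOm.

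**Figure D4:**
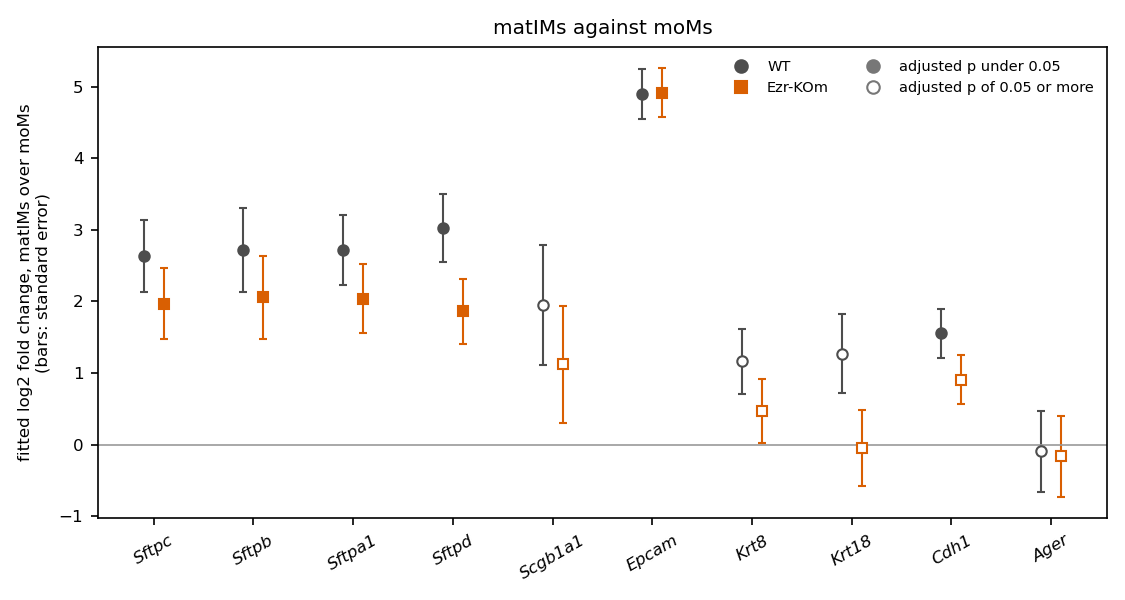
Fitted log2 fold change of matIMs over moMs for each gene in WT (grey circles) and Ezr-KOm (orange squares), with bars for the standard error and filled symbols for an adjusted p under 0.05. The surfactant genes lay between 1.86 and 3.02, Epcam at 4.90 and 4.91, and Ager at -0.10 and -0.16.

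Other genes of the same cell types were compared between matIMs and moMs in the same fit. Of the 15 other type II genes, 10 were called higher and 1 lower in WT (median log2 fold change 2.17, against 0.01 over all genes), and 9 higher and 0 lower in Ezr-KOm (median 1.67). Muc1, a mucin of the epithelial surface, rose by 2.17 ± 0.28 in WT, Scd1, a fatty acid desaturase, by 3.63 ± 0.57 and Lamp3 by 2.49 ± 0.38, while Abca3, the lipid transporter of lamellar bodies, fell by 0.97 ± 0.25. Of the 12 type I genes none was called higher, 3 were called lower in WT (median -0.58) and 5 in Ezr-KOm (median -0.75), among them Hopx (-1.36 ± 0.26 in WT) and Cav1 (-0.69 ± 0.25). Of the 20 general epithelial genes, 8 were called higher in WT and 5 in Ezr-KOm. Spint2, a protease inhibitor, rose by 4.80 ± 0.32 in WT and Cldn3, a tight junction protein, by 2.86 ± 0.52. Of the club cell genes, 2 of 9 tested were called higher in each genotype, close to the 13.4% and 12.5% of all genes called higher in WT and Ezr-KOm, and of 3 ciliated cell genes tested none was called in WT, while 1 was called higher and 1 lower in Ezr-KOm.

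Endothelial markers were lower, with 8 of 12 called lower in matIMs and 1 higher in each genotype (median -1.32 in WT and -1.56 in Ezr-KOm), and 3 of 12 fibroblast and mural markers were called lower in each genotype. Over all genes tested, 24.8% in WT and 23.3% in Ezr-KOm were called in either direction, and 13.4% and 12.5% were called higher. Beside these shares, the 3 of 12 fibroblast and mural markers and the 3 of 12 type I genes called lower in WT are not read as a result. Tie1, an endothelial receptor kinase, fell by 1.61 ± 0.30 in WT. Dendritic cell markers were higher, with 6 of 8 called higher and none lower in each genotype. Ccr7, the chemokine receptor of migrating dendritic cells, rose from 13.4 ± 3.36 CPM in WT moMs to 1815 ± 292 CPM in WT matIMs, and Zbtb46, a factor of classical dendritic cells, from 3.49 ± 1.304 to 120 ± 17.8 CPM. Summed dendritic cell markers ran from 2502 to 3544 CPM in WT matIMs, from 172 to 408 CPM in WT tnsIMs and from 93.1 to 139 CPM in WT moMs. B cell markers (6 of 6 called higher) and alveolar macrophage markers (10 of 12 called higher and 1, Chil3, lower) also moved in both genotypes. The share of these cells in the levels of Epcam, Cdh1 and the surfactant genes was not tested.

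Loss of ezrin in the macrophages was not accompanied by a called change in any of the 10 genes. In moMs 0 of 10 genes were called between Ezr-KOm and WT (edgeR quasi-likelihood test, every Benjamini-Hochberg adjusted p = 1), where 0.171% of all genes were called, and 42 of 15811 genes in place of 27 with the replicate number as a block. In tnsIMs 0 of 10 were called beside 0.164% of all genes, and in matIMs 0 of 10 beside 0.152%, with 38 genes in place of 24 under the block. None of the 10 had an unadjusted p under 0.05 in any population, and DESeq2 called 0 of 10 in each. With the study's own thresholds, which ask for an unadjusted p under 0.05 and a log2 change of more than 0.75 in either direction, 0 of 10 were called in each population, beside 2.51% of all genes for moMs, 1.83% for tnsIMs and 2.4% for matIMs. The standard errors of the 10 genes were 0.26 to 0.84 on the log2 scale, and changes well above that size could go uncalled with 3 libraries a group. Ezr itself, at -1.20 ± 0.24 in moMs, had an adjusted p of 0.0549 (edgeR, Benjamini-Hochberg) and was not called.

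The direction of the estimates was not the same in the 3 populations. In moMs the log2 fold change of Ezr-KOm over WT was 0.20 ± 0.49 for Sftpc, 0.21 ± 0.65 for Sftpb, 0.10 ± 0.47 for Sftpa1 and 0.49 ± 0.46 for Sftpd, and 8 of the 10 estimates were above 0. Without replicate 1 of the Ezr-KOm moMs, 7 of those 8 turned negative, with -0.88 for Sftpc, -1.42 for Sftpb, -1.06 for Sftpa1 and -0.42 for Sftpd, and the smallest adjusted p among these 7 was 0.952. That library held 997 counts of Sftpc, against 192 and 292 counts in the other Ezr-KOm moM libraries. The Sftpa1 estimate was also negative without replicate 2 of the WT moMs (-0.103) and with the replicate block (-0.079), and that of Cdh1 without replicate 3 of the Ezr-KOm moMs (-0.344).

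In tnsIMs 8 of 10 estimates were below 0, with -0.37 ± 0.47 for Sftpc, -0.32 ± 0.48 for Sftpb, -0.51 ± 0.46 for Sftpa1, -0.31 ± 0.42 for Sftpd and -0.63 ± 0.55 for Ager. The smallest unadjusted p was 0.195, for Krt8 (-0.52 ± 0.38). In matIMs all 10 estimates were below 0, from -0.07 ± 0.26 for Epcam to -0.68 ± 0.43 for Sftpd, which had the smallest unadjusted p of 0.131. The median of all genes there was -0.0014. Several of the 10 genes rose and fell together between libraries, so their signs are not separate observations. Leaving out 1 library turned the matIM estimates of Scgb1a1, Epcam and Ager positive. Only Cdh1 in matIMs had groups without overlap, with every Ezr-KOm library lower than every WT library, as was the case for 5.12% of all genes tested, and its log2 fold change was -0.47 ± 0.34.

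**Figure D5:**
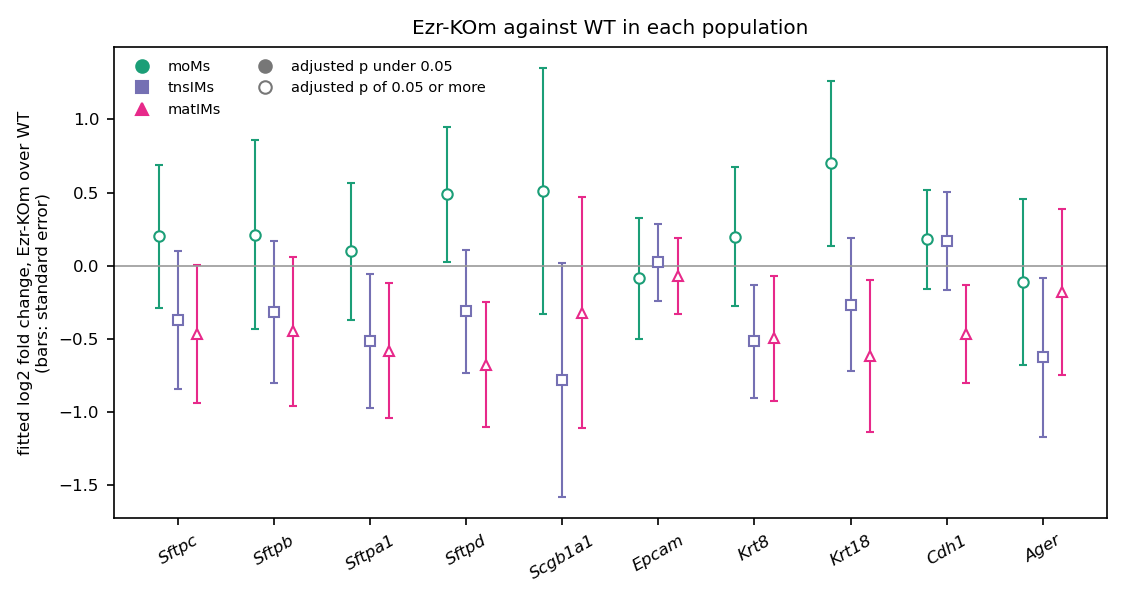
Fitted log2 fold change of Ezr-KOm over WT for each gene in moMs (green circles), tnsIMs (purple squares) and matIMs (pink triangles), with bars for the standard error and filled symbols for an adjusted p under 0.05. No symbol is filled, the moM estimates ran from -0.11 to 0.70 and the matIM estimates from -0.68 to -0.07.

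Differences in the genotype effect between populations were tested as interactions. None of the 10 genes was called for tnsIMs against moMs, matIMs against moMs or matIMs against tnsIMs (0% of all genes called in each by edgeR and 0 genes by DESeq2, and 0 of 10 with an unadjusted p under 0.05). The smallest unadjusted p, 0.0808 (edgeR), was that of Sftpd for matIMs against moMs, with a log2 difference of -1.16 ± 0.63. This difference rested largely on replicate 1 of the Ezr-KOm moMs. Without that library the Sftpd genotype estimate in moMs was -0.42 in place of 0.49, beside -0.68 in matIMs with all libraries. The interaction without it is not given here.

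Of the other genes on the epithelial lists, 1 was called between genotypes. Tppp3, which marks ciliated cells but was at 189 ± 16.8 CPM in WT moMs and is therefore not limited to them here, was at 167 ± 13.4 CPM in WT matIMs and 86.7 ± 18.2 CPM in Ezr-KOm matIMs (log2 fold change -0.95 ± 0.18, edgeR, Benjamini-Hochberg adjusted p = 0.0416). No endothelial, fibroblast, dendritic cell or other marker on the lists was called. For moMs, tnsIMs and matIMs, the median of the other type II genes was 0.06, -0.30 and -0.20, that of the general epithelial genes 0.23, -0.26 and -0.46 and that of the type I genes -0.11, -0.47 and -0.36, where the median of all genes was within 0.01 of 0. Fibroblast and mural markers had medians above 0 in the 3 populations (0.72, 0.33 and 0.36), with 11, 12 and 11 of 12 genes higher in Ezr-KOm as estimates, none called. By the study's own thresholds, 2.51%, 1.83% and 2.4% of all genes passed in moMs, tnsIMs and matIMs. Of the fibroblast and mural list, Col1a1 (1.08 ± 0.30, edgeR unadjusted p = 0.00203) and others passed in moMs. Pdgfra also passed in tnsIMs (0.98) and matIMs (1.56), and Lum in matIMs (1.46), each higher in Ezr-KOm. The paper also reports Col1A1 higher in moMs. Of the club cell list, Cldn10 (-4.54) and Scgb3a2 (-4.02) passed in moMs. In tnsIMs Scgb3a2 (-2.33) and Bpifa1 (-1.51) passed, as did Tppp3 (-0.76), each lower in Ezr-KOm. Pdpn of the type I list passed those thresholds in the 3 populations, lower in Ezr-KOm (-1.62, -1.84 and -2.23). The summed level of the fibroblast and mural markers ran from 71.9 to 92.8 CPM in Ezr-KOm moMs against 42.0 to 61.5 CPM in WT moMs. In tnsIMs it ran from 189 to 277 CPM in Ezr-KOm against 172 to 191 CPM in WT. The part of these cells in the estimates of the 10 genes was not tested.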

How the data were processed

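RNA of the 18 sorted samples had been amplified with SMART-Seq v4, made into Nextera XT libraries and sequenced paired-end on a NovaSeq instrument. The authors aligned the reads with STAR 2.7.9a to GRCm39 and deposited raw counts per gene from its gene counting, and the strand column used is not given in the sources used here. From these deposited counts, genes were filtered with filterByExpr (minimum count 10), scaled by TMM and fitted in 1 model of 6 groups with edgeR 4.0.16 (quasi-likelihood F-test, R 4.3.3, limma 3.58.1), with Benjamini-Hochberg adjustment over all 15811 genes tested. DESeq2 1.42.0, other scalings and filters, a replicate block, fits within a population or genotype and leaving out each library were the alternatives. Standard errors were taken from the fold change and the F statistic. Exon lengths came from Gencode M39. Figures were drawn in Python 3.11.15 with matplotlib 3.10.9.

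The 10 genes and the marker lists were chosen with earlier results of these data known. Named from each list were called genes, at most 4 by smallest p, and the 2 to 4 genes with the highest mean CPM. Named in addition, because a result turned on them, were Nkx2-1, Col1a1, Pdgfra, Lum, Cldn10, Scgb3a2, Bpifa1, Pdpn and genes that overlap a member. The samples are described as biological replicates, and p-values measure the spread between them. Same-numbered WT and Ezr-KOm samples deviated together (r from 0.102 to 0.316, against at most 0.0508 for other numbers), a pairing that comes from the data and not from the labels. The populations of a genotype share 3 mice, and whether a number marks 1 mouse is not given in the sources used here. On simulated counts for the tnsIM genotype comparison, with 200 of 15811 genes changed by 2 on the log2 scale, 92.5% were recovered, and 7.5% of calls were false. The simulation gave all groups the same mean levels outside the changed genes, and no shared mice. Its recovery applies to changes of that size and not to the smaller genotype estimates of the 10 genes. The result of 1 gene of the general epithelial list is not reported here.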

Additional observations from a re-analysis of the deposited data

How the results depend on the processing

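Of 410 values of the 10 genes under other settings that kept all libraries, 393 kept their direction and side of the threshold, 13 passed it only under the other setting and 4 changed sign. The genes called in matIMs against moMs numbered 6 to 8 in WT and 4 to 6 in Ezr-KOm when single libraries were left out, and 3 in Ezr-KOm when at least 10 counts were required in every library, where 8 of the 10 genes were tested and Sftpb and Epcam dropped out. No genotype or interaction call appeared for the 10 genes under any of these settings. The Sftpc difference of tnsIMs from the other populations ran from 4.51 to 5.07 in WT and from 4.37 to 5.18 in Ezr-KOm on the log2 scale.

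With the replicate block, the genotype estimate of Sftpa1 in moMs was -0.079, and Krt18 in matIMs against moMs of Ezr-KOm was 0.09 (0.14 with the block by genotype and number, 0.089 with library totals only). The block by number called 8 of the 10 genes in WT matIMs against moMs, adding Krt8 and Krt18, and 6 in Ezr-KOm, adding Cdh1. The populations' numbers correlated from 0.0905 to 0.397 where they matched and at most at 0.0316 where they did not, and every sample correlated best with its own number. The block changed no genotype call of the 10 genes. Library totals alone shifted the median of all genes in matIMs against moMs to 0.11 in WT and 0.13 in Ezr-KOm.

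When single libraries were left out, signs changed for estimates that were not called. In moMs, Ezr-KOm over WT ran from -0.88 to 0.62 for Sftpc, -1.42 to 0.72 for Sftpb, -1.06 to 0.55 for Sftpa1, -0.42 to 0.89 for Sftpd, -0.69 to 0.97 for Scgb1a1, -0.65 to 0.21 for Epcam, -0.59 to 0.59 for Krt8, -0.59 to 1.10 for Krt18, -0.34 to 0.53 for Cdh1 and -1.19 to 0.43 for Ager. In tnsIMs it ran from -0.54 to 0.029 for Sftpb, -0.13 to 0.18 for Epcam, -0.60 to 0.021 for Krt18 and -0.38 to 0.39 for Cdh1, and in matIMs from -0.86 to 1.31 for Scgb1a1, -0.24 to 0.071 for Epcam and -0.83 to 0.18 for Ager. For matIMs against moMs, Ager ran from -0.49 to 0.41 in WT and from -0.85 to 0.92 in Ezr-KOm, and Krt18 from -0.46 to 1.25 in Ezr-KOm. Leaving out a library leaves fewer samples, and the cause of the other changes was not tested.

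Over all genes, the genotype calls for moMs, tnsIMs and matIMs numbered 27, 26 and 24 with edgeR and 55, 55 and 52 with DESeq2. They numbered 7 in tnsIMs when that population was fitted alone, and 13 in matIMs with at least 10 counts in every library. In moMs 6 to 15 counts of Epcam a library limit the precision of its fold change.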

Other observations

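The genes outside the 10 that were most like Epcam over the 18 libraries, by Pearson r of log2 CPM, were Spint2 (0.988), H2-Eb1 (0.981), Ehf (0.975), H2-Aa (0.974) and H2-Ab1 (0.969), of which 3 are MHC-II genes whose product was part of the sorting gate. Spint2 had a WT mean of 1.79 ± 0.620 CPM for moMs, 25.7 ± 3.91 CPM for tnsIMs and 49.0 ± 5.64 CPM for matIMs (SD, n = 3). Ehf, an epithelial ETS factor, was at 0.136 ± 0.131, 6.60 ± 2.03 and 14.5 ± 4.18 CPM, so the order of the populations was that of Epcam. Cdh1 was closest to Slc30a4, a zinc transporter (0.906), which was at 4.66 ± 1.07, 12.4 ± 1.93 and 48.2 ± 7.46 CPM.

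Ager was closest to Mal2 (0.980), Aqp5 (0.975), Wwc1 (0.969), Cldn18 (0.963) and AU021092 (0.958). Aqp5, a water channel of type I pneumocytes, had a WT mean of 2.17 ± 0.390 CPM for moMs, 19.0 ± 1.64 CPM for tnsIMs and 2.13 ± 0.345 CPM for matIMs. Cldn18, a claudin of alveolar tight junctions, was at 3.63 ± 2.704, 25.6 ± 5.55 and 3.58 ± 1.40 CPM. As for Ager, moMs and matIMs were at like levels for both. Scgb1a1 had no close partner, with the highest r at 0.795, for Gm10461. The points of all these r values share the 3 populations.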
